A study of Homo sapiens with 16 samples.

Results

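The response of Hs 936.T, an established human melanoma line, to rocaglamide A (RocA) was read from 4 of the 16 ribosome profiling libraries of the series. The members were chosen by their titles, which mark 2 libraries of wild-type Hs 936.T cells given DMSO, the vehicle, 1 library of cells given 0.3 µM RocA and 1 library of cells given 3 µM RocA, all for 30 minutes. No group carried a mutation, transgene or second agent by its labels. The other 12 libraries hold the same 3 conditions, again with 2 DMSO libraries a line, in NCI-H1650 and NCI-H520, both lung cancer lines, and in A375, another melanoma line. The deposited tables give footprint counts per transcript entry without a gene name, so genes were named by matching the coding lengths of neighbouring entries to an annotation, which gave 9534 genes, of which 5896 had enough counts in Hs 936.T to be tested.

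RocA is a plant compound of the flavagline family that locks the RNA helicase eIF4A onto stretches of purines (A and G) in messenger RNAs. eIF4A works with the cap-binding protein eIF4E and the scaffold eIF4G in the eIF4F complex, which unwinds the 5′ untranslated region (5′ UTR) so that the small ribosomal subunit can reach the start codon, and the clamped helicase blocks that path. The title of the series names DDX3, a related helicase, as another target. Ribosome profiling sequences the short messenger RNA fragments that ribosomes shield from nuclease, so a gene's count follows both its messenger RNA level and the number of ribosomes on it. RNA-seq was not used here, so the share of each cannot be told apart, and in bulk samples fewer cells of a type and less RNA per cell cannot be told apart either.

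Counts fell sharply under RocA. Summed over the named genes, the DMSO libraries held 2471056 and 2123347 footprints, the 0.3 µM library 571958 (24.9% of the DMSO mean) and the 3 µM library 291141 (12.7%). No spike-in is named in the labels, so these totals also follow how much of each library was sequenced. All values below are CPM, the counts scaled to a common library size with trimmed-mean (TMM) factors, so a rise or fall means a larger or smaller share of a library's footprints. The 2 DMSO libraries differed by somewhat more than counting noise (chi-square per degree of freedom 1.548 over 6273 genes), whereas the 0.3 and 3 µM libraries, which stand in as the 2 RocA replicates, differed more (5.957 over 4010 genes). The labels do not say whether replicates came from separate cultures, so p-values measure only the spread between these libraries, which may be technical. The line showed its labelled identity: all 11 melanocyte markers that could be named were above 0 in all 4 libraries, with a summed level of 34990 to 60791 CPM (scaled over all 16 libraries), against 35.8 to 71.8 CPM for 5 mesenchymal, 23.9 to 88.2 CPM for 5 epithelial, at most 0.93 CPM for 3 squamous and at most 20.5 CPM for 5 blood cell markers. Among those, PTPRC and CD14 were at 0 in all 4 libraries.

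With RocA, 1068 genes rose (18.1% of those tested) and 1019 fell (17.3%) by edgeR's quasi-likelihood test with p-values adjusted by Benjamini and Hochberg's method, of which 698 and 733 changed at least 2-fold. The middle of the distribution stayed near 0, with a median log2 fold change of -0.04 over all genes tested. Each of the 2087 called genes had the same sign at 0.3 and at 3 µM. Both doses entered the test as replicates, so a gene with opposite signs could hardly be called, and this is no separate evidence. The counts rest on having 2 DMSO libraries: without DMSO replicate 1 they were 369 higher and 364 lower, and without DMSO replicate 2 they were 374 and 425, where the lone DMSO library was assumed to vary like the RocA libraries. DESeq2 called 757 higher and 479 lower, so that 61.2% of its calls were rises against 51.2% with edgeR.

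**Figure D1:**
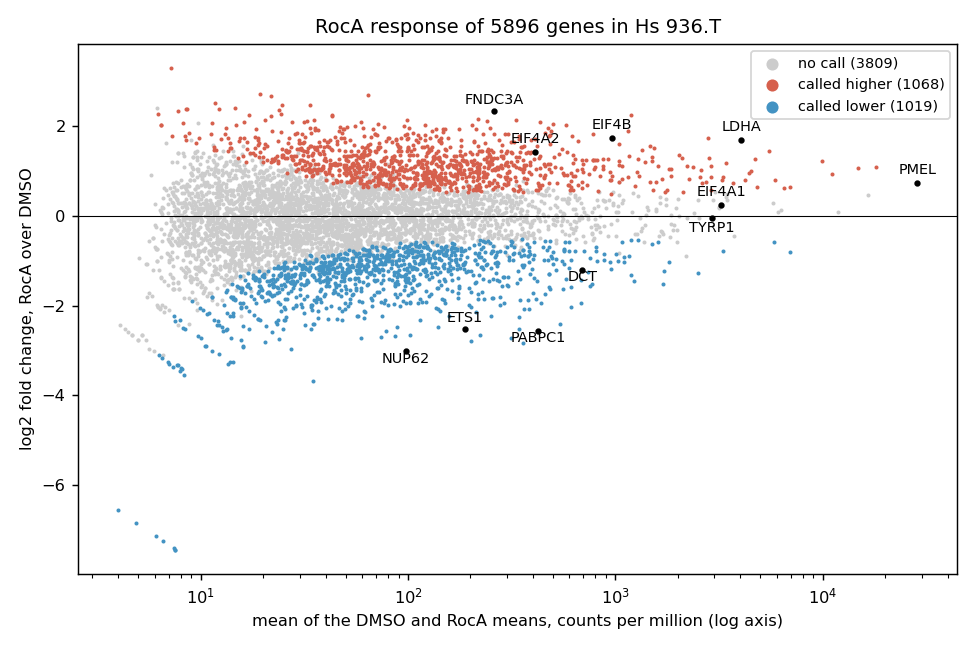
Log2 fold change of RocA over DMSO (vertical axis) against the mean level in CPM (horizontal log axis) for the 5896 genes tested in Hs 936.T; red points were called higher, blue points lower, grey points had no call, and black points are labelled genes. Red and blue points are about as many, and PMEL, at the far right, lies above 0 without a call; the few points near -7 are low genes with no count left under RocA, whose fitted value is no bound.

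Large falls were read among genes with a mean of at least 20 CPM. NUP62, a central channel protein of the nuclear pore (chromosome 19, 49906825 to 49929763, GRCh38), stood at 183 and 165 CPM in the DMSO libraries and at 22.9 and 18.7 CPM at 0.3 and 3 µM RocA (log2 -3.02 ± 0.27, SE; adjusted p = 0.00084, edgeR). RBBP7, a histone-binding subunit of chromatin complexes, went from 629 and 645 to 115 and 52.2 CPM (log2 -2.83 ± 0.28), and HNRNPD, an RNA-binding protein, from 569 and 527 to 86 and 78.3 CPM (log2 -2.72 ± 0.21). Both RocA libraries lay below both DMSO libraries by the rule of choice, so this separation is no further support. Further large falls were those of TMEM126A, HDHD2, NAA50 (an N-terminal acetyltransferase), RAB29 (a small GTPase), DSN1 (a kinetochore subunit), TMEM14B, BUD31 (a splicing factor) and RAP1B (a small GTPase), with log2 changes of -2.97 to -2.66 over these 8 genes. TMEM126A and RAB29 kept 5 footprints each at 0.3 µM and none at 3 µM.

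The largest rises under the same limit were of similar size but mostly in genes with fewer footprints. The limit was on the mean over all 4 libraries, so rises could pass through their RocA values and falls through their DMSO values. The lower DMSO levels of the rises are thus no separate result. RPS6KB2 rose more (log2 3.30) but lay below the limit. FNDC3A, a fibronectin type III domain protein (chromosome 13, 48975912 to 49209779), went from 79.9 and 92.3 to 453 and 418 CPM (log2 2.34 ± 0.18, adjusted p = 0.00082, edgeR), and MDN1, a giant ATPase of ribosome assembly, from 85.6 and 76.8 to 439 and 265 CPM (log2 2.16 ± 0.24). In both genes the RocA libraries lay above the DMSO libraries, which the choice of the rises also required. ZFP36, which speeds the decay of AU-rich messenger RNAs, rose from 7.58 and 6.47 to 32.5 and 52.2 CPM (log2 2.47 ± 0.39). FLNC, an actin crosslinker, went from 7.96 and 5.18 CPM to 19.1 CPM at 0.3 µM and 63.4 CPM at 3 µM (log2 2.37 ± 0.58, adjusted p = 0.015, edgeR), so its RocA libraries differed from each other more than those of FNDC3A. Further large rises were those of C22orf39, CCDC107, GUK1 (guanylate kinase), DGCR6L, KREMEN1 (a Wnt pathway receptor), TRMT44 (a tRNA methyltransferase) and IFFO1, at log2 2.22 to 2.71, each from under 18 CPM with DMSO.

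The targets of the compound and their partners did not move as a block. Of 16 tested genes of eIF4F, DDX3 and the partners of eIF4A, 2 rose (12.5%, against 18.1% of all genes tested) and 5 fell (31.2%, against 17.3%), with a median log2 change of -0.14. Without either DMSO library 3 fell, and without the 0.3 µM library 4 rose. EIF4A1, the main eIF4A paralog, stood at 2994 and 2940 CPM with DMSO and at 2959 and 4070 CPM with RocA, and did not pass the test (log2 0.24 ± 0.19, adjusted p = 0.36, edgeR). Its paralog EIF4A2 rose from 226 and 215 CPM to 416 CPM at 0.3 µM and 787 CPM at 3 µM (log2 1.42 ± 0.28, adjusted p = 0.0058, edgeR). EIF4B, which stimulates the helicase, rose from 466 and 425 to 1406 and 1567 CPM (log2 1.74 ± 0.17, adjusted p = 0.00084, edgeR). Thus the 2 genes that rose were a paralog and a cofactor of the helicase. In both the RocA libraries lay above both DMSO libraries, which is no support beyond their calls.

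PDCD4, a protein that binds eIF4A and inhibits it, fell from 129 and 124 CPM to 63 CPM at 0.3 µM and 37.3 CPM at 3 µM (log2 -1.24 ± 0.25, adjusted p = 0.0065, edgeR). EIF4G2, a scaffold that lacks the part binding eIF4E, fell from 634 and 605 to 159 and 131 CPM (log2 -2.08 ± 0.20), and the main scaffold gene EIF4G1 from 902 and 889.7 to 552 and 485 CPM (log2 -0.78 ± 0.17, adjusted p = 0.0093, edgeR). EIF4G1 lost its call when either DMSO library was left out. PABPC1, the poly(A)-binding protein that ties the tail to eIF4G, fell most, from 768 and 689.6 to 141 and 97 CPM (log2 -2.57 ± 0.22). EIF4ENIF1, a shuttling partner of eIF4E, was the remaining fall (log2 -1.39 ± 0.42). DDX3X stood at 934 and 906 CPM with DMSO, at 504 CPM with 0.3 µM and at 824 CPM with 3 µM RocA, below both DMSO libraries at both doses but without a call (log2 -0.49 ± 0.23, adjusted p = 0.13, edgeR). EIF4E was at 203 and 179 CPM with DMSO and at 160.5 and 336 CPM with RocA, on both sides of the DMSO values.

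Of 19 other initiation factors tested, 3 rose (15.8%) and 5 fell (26.3%), with a median log2 change of 0.02, beside 18.1% and 17.3% of all genes. Without either DMSO library 1 fell, and without either RocA library 6 rose and 6 fell. EIF2A, an initiation factor separate from the eIF2 complex, rose from 306 and 270.4 to 688 and 944 CPM (log2 1.49 ± 0.20). EIF5, which stimulates GTP hydrolysis by eIF2, fell from 146 and 136 to 40.1 and 44.8 CPM (log2 -1.75 ± 0.23). In the set of elongation, termination and ribosome rescue genes, 4 of 12 rose and 4 fell (33.3% each way, median 0.09; 1 rose without DMSO replicate 1 and 2 without DMSO replicate 2): EEF1D, an exchange factor for eEF1A, rose (log2 1.25 ± 0.17), and GSPT1, the release factor eRF3a, fell (log2 -1.44 ± 0.20).

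The 5′ UTR was described in 5600 of the tested genes, taken from the annotated transcript of GENCODE 29 on GRCh38. Genes that fell had longer runs of A and G there: the median longest run was 9 bases in the 1000 genes called lower, 6 bases in the 981 called higher and 8 bases in all. The median log2 change went down with the run, from 0.32 in 1925 genes with runs of up to 6 bases to -0.55 in 337 genes with runs of 16 or more. In the first class 29.4% of genes were called higher and 8.73% lower, and in the last class 8.31% were called higher and 30.0% lower. Across genes, which are not independent replicates, Spearman's rho with the log2 change was -0.33 for the longest purine run and -0.32 for the length of the 5′ UTR. It was -0.14 for the purine share and 0.19 for the GC content.

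**Figure D2:**
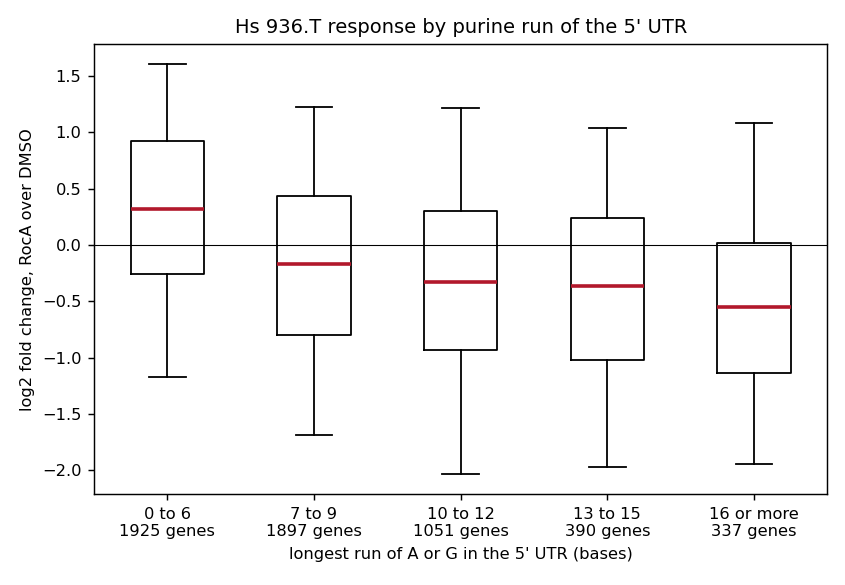
Log2 fold change of RocA over DMSO in Hs 936.T (vertical axis) for genes grouped by the longest run of A or G in the 5′ UTR (horizontal axis, bases); red lines are medians, boxes span the quartiles and whiskers the 5th to 95th percentile of genes. The median goes from 0.32 in the class with runs of 0 to 6 bases to -0.55 in that with 16 or more, and the boxes overlap between neighbouring classes.

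A long 5′ UTR has more room for a purine run, and the lengths moved with the calls: the median was 253 bases in genes called lower, 111 bases in genes called higher and 180 bases in all. The 6-letter motifs AGAGAG and GAGAGA, which overlap each other and were searched on the transcript strand only, were in the 5′ UTR of 21.3% of genes called lower, 7.03% of those called higher and 13.2% of all. Split into tertiles of UTR length, genes with a motif had a median log2 change of -0.24 against 0.35 without in the shortest group, -0.57 against -0.12 in the middle group and -0.46 against -0.39 in the longest. The gap between genes with and without a motif was thus smallest among long 5′ UTRs. The length of the coding sequence told less, with a Spearman's rho of -0.07 over 5896 genes.

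Of the 11 large falls named above, 6 had AGAGAG or GAGAGA in the 5′ UTR, and the median longest run was 12 bases. Of the 10 large rises named above with an annotated 5′ UTR, 2 had a motif (FNDC3A and FLNC), and the median run was 7 bases. The stretches below show the longest purine run of genes whose values are given here, written 5′ to 3′ as DNA with the run in capitals and up to 30 bases in all. The first 3 are large falls with a motif, DSN1 is a large fall with a short run, and EIF5, DCT and PDCD4 are initiation or pigment genes that fell. EIF4A2 and ZFP36 rose, and FLNC rose with a long run. It was not alone in this, as 38 of 390 genes with runs of 13 to 15 bases were called higher.

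RBBP7, chrX:16870258-16870286, minus strand: aagtttGGAGAGAGAGAGAAGAGcgcctc
RAB29, chr1:205775425-205775449, minus strand: GGAGGAAGGGGAGAGAGAGGcgcgc
BUD31, chr7:99410038-99410067, plus strand: aacaggaccAGAGAGGGAAGGtgacctgaa
DSN1, chr20:36773753-36773782, minus strand: tgaccgtgacgtAGAAGGtggagaccgctt
EIF5, chr14:103334011-103334039, plus strand: ggcGGGGGGAGGGGAGAGGAAGGAAGcga
DCT, chr13:94479627-94479656, minus strand: agagctAAGGAGGGAGGGAGAGGGtttaga
PDCD4, chr10:110871883-110871911, plus strand: gttactgggtAGAAGAAAAcaaaaacaaa
EIF4A2, chr3:186783547-186783567, plus strand: tatAAAAAAcgggtggttggg
ZFP36, chr19:39406813-39406835, plus strand: ttcctatAAGtagccggctctcg
FLNC, chr7:128830425-128830454, plus strand: ccggccctGGAGGGAGAGAGAGccagagag

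The runs are 17 bases in RBBP7, 20 in RAB29, 12 in BUD31, 23 in EIF5, 18 in DCT and 9 in PDCD4. DSN1, which fell as far as RAB29, had a run of 6 bases, the same as EIF4A2, which rose. ZFP36 has a longest run of 3 bases in a 5′ UTR of 74 bases, whereas FLNC holds a run of 14 bases in a 5′ UTR of 261 bases. Genes that fell and genes that rose thus overlap in the length of their run. Which transcript of a gene these cells use was not measured.

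The genes that mark Hs 936.T as a pigment cell line mostly kept or lowered their share. Of 21 tested melanocyte genes, 1 rose (4.76%, against 18.1% of all genes) and 8 fell (38.1%, against 17.3%), with a median log2 change of -0.19 against -0.04 over all genes. Melanocytes build melanin in melanosomes, lysosome-like organelles, under the transcription factor MITF, and PMEL forms the fibrils on which the pigment is laid down. PMEL (chromosome 12, 55954105 to 55973317) stood at 21242 and 21855 CPM with DMSO, at 46812 CPM with 0.3 µM and at 24424 CPM with 3 µM RocA. Both RocA libraries were higher than both DMSO libraries, but the doses differed so much that no call was made (log2 0.73 ± 0.27, adjusted p = 0.069, edgeR).

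**Figure D3:**
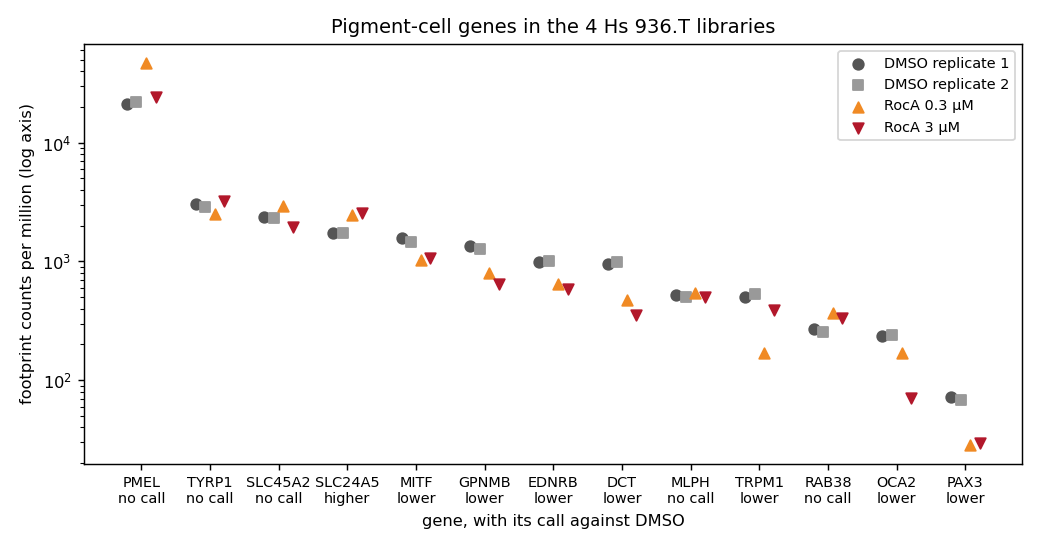
Footprint CPM (vertical log axis) of 13 pigment-cell genes (horizontal axis, with the call of each) in the 4 Hs 936.T libraries; circles and squares are DMSO, upward triangles 0.3 µM and downward triangles 3 µM RocA. PMEL at 0.3 µM stands alone at 46812, while DCT, MITF, GPNMB, EDNRB, TRPM1, OCA2 and PAX3 lie below both DMSO libraries at both doses.

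The melanin enzymes went apart. DCT, dopachrome tautomerase, fell from 959 and 982 CPM to 478 CPM at 0.3 µM and 351 CPM at 3 µM (log2 -1.21 ± 0.20, adjusted p = 0.0028, edgeR). TYRP1, its relative in the same pathway, was at 3039 and 2883 CPM with DMSO and at 2507 and 3223 CPM with RocA, on both sides of the DMSO values (log2 -0.05 ± 0.18). Of the transporters, SLC24A5, a potassium-dependent sodium/calcium exchanger of pigment cells, was the single rise (1730 and 1745 to 2443 and 2574 CPM, log2 0.53 ± 0.16, adjusted p = 0.031, edgeR), and SLC45A2 stood at 2345 and 2316 CPM with DMSO and at 2906 and 1962 CPM with RocA, so that it was called lower without the 0.3 µM library and higher without the 3 µM library (log2 -0.28 and 0.33). OCA2, the P protein of melanosomes, fell to 170.0 and 70.9 CPM from 238 and 241 CPM (log2 -0.88 ± 0.29, adjusted p = 0.047, edgeR). SLC24A5 lost its call with DESeq2 and without either DMSO library, and OCA2 under several settings including DESeq2.

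The transcription factors MITF and PAX3 fell. MITF went from 1573 and 1456 to 1020 and 1067 CPM (log2 -0.54 ± 0.16, adjusted p = 0.033, edgeR), and PAX3, which acts upstream of MITF, from 71.6 and 68.6 to 28.7 and 29.8 CPM (log2 -1.27 ± 0.27, adjusted p = 0.0078, edgeR). The membrane proteins GPNMB and EDNRB, the endothelin B receptor, fell by log2 -0.85 ± 0.18 and -0.70 ± 0.17. TRPM1, a cation channel (log2 -0.95 ± 0.32, adjusted p = 0.048, edgeR), and the MITF target CDK2 (log2 -0.90 ± 0.16) completed the falls. MITF, PAX3 and TRPM1 lost their calls with DESeq2 and without DMSO replicate 1, and GPNMB, EDNRB and CDK2 lost theirs without either DMSO library. CDK2 lies on the opposite strand within the span of PMEL, and whether the counting used strand is not stated in the sources used here. Without DMSO replicate 1, 1 of the 21 genes was called lower and none higher, without DMSO replicate 2 it was 2 and none, and without the 3 µM library 7 rose and 9 fell; the median stayed between -0.46 and -0.20 over the 4 omissions. MLPH and RAB38, which serve melanosome transport and cargo delivery, were not called (log2 0.03 ± 0.17 and 0.44 ± 0.17). TYR, MLANA, SOX10 and RAB27A were not named by the length matching and were not analysed here.

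Beyond the lineage genes, the machinery of melanosomes and endosomes showed 1 rise (4.35%, against 18.1% of all genes) and 6 falls (26.1%, against 17.3%) among 23 tested genes (median log2 -0.06). Without either DMSO library there were 2 falls and no rise, and without the 3 µM library 5 rises and 7 falls. RAB7A, the GTPase of late endosomes, fell from 1781 and 1606 to 667 and 698 CPM (log2 -1.31 ± 0.17). HPS3, a subunit of a complex that sorts cargo to melanosomes, rose from 95.1 and 78.1 to 204 and 127 CPM (log2 1.0 ± 0.24), a call lost without either DMSO library and without the 0.3 µM library. Among 17 lysosome genes 4 rose (23.5%) and 6 fell (35.3%), with a median of -0.18. Without DMSO replicate 1 there were 2 rises and 1 fall, without DMSO replicate 2 there was 1 of each, and the median was -0.54 without the 0.3 µM library and 0.08 without the 3 µM library. CTSB, the protease cathepsin B, went from 5798 and 6124 to 16476 CPM at 0.3 µM and 11203 CPM at 3 µM (log2 1.22 ± 0.21), and ATP6V1H, a regulatory subunit of the proton pump, from 425 and 406 to 187 and 127 CPM (log2 -1.36 ± 0.21).

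Genes of the mitochondrion were often among the rises. Of 29 mitochondrial ribosomal protein genes, 20 rose (69.0%, against 18.1% of all genes tested) and 3 fell (10.3%, against 17.3%). Their median log2 change was 0.97. MRPS27, of the small subunit, rose from 217 and 213 to 692 and 817 CPM (log2 1.8 ± 0.18, adjusted p = 0.00084, edgeR), and MRPL3, of the large subunit, fell from 447 and 398.9 to 129.9 and 164 CPM (log2 -1.55 ± 0.20). The rises numbered 8 without DMSO replicate 1 and 7 without DMSO replicate 2, with medians of 1.03 and 1.0. Their 5′ UTRs were short: in 25 genes with one annotated, the median was 77 bases and the median longest purine run 5 bases, against 180 and 8 bases over all genes.

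Of 34 nuclear genes of oxidative phosphorylation, 17 rose, where 18.1% of all genes tested did (median 0.64; 7 rose without either DMSO library). In the same list 5 fell (14.7%), a share close to the 17.3% of all genes. NDUFS8, a core subunit of complex I, rose from 126 and 117 CPM to 441 and 645 CPM (log2 2.14 ± 0.22), SDHA, the catalytic subunit of complex II, from 352 and 354 to 1020 and 779.7 CPM (log2 1.36 ± 0.19). ATP5MC1, which encodes the c subunit of the ATP synthase rotor, fell from 714 and 742 to 367 and 254 CPM (log2 -1.20 ± 0.21). Of 21 genes of the citric acid cycle, 10 rose (47.6%, against 18.1%) and 3 fell (14.3%, against 17.3%), with a median of 0.62. Here too fewer rises were called without either DMSO library. DLD, the dihydrolipoamide dehydrogenase shared by several complexes, fell by log2 -1.54 ± 0.20. The median 5′ UTR was 110.5 bases in the first of these lists and 109.5 bases in the second.

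**Figure D4:**
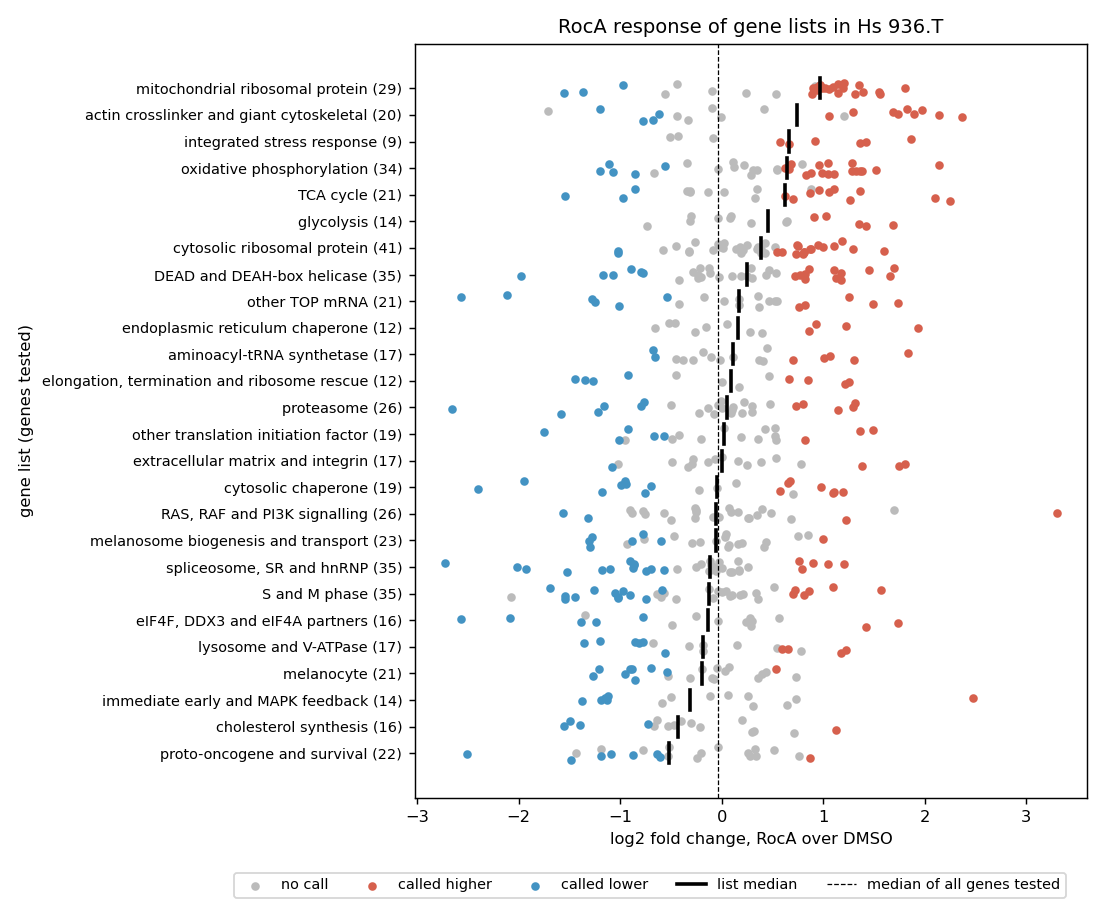
Log2 fold change of RocA over DMSO in Hs 936.T (horizontal axis) for the tested members of 26 gene lists (vertical axis, number tested in brackets); red points were called higher, blue lower, grey had no call, thick bars are list medians and the dashed line is the median of all genes tested. Mitochondrial ribosomal protein genes lie at the top with a median of 0.97 and proto-oncogene and survival genes at the bottom with -0.52, and nearly every list holds points on both sides of 0.

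Cytosolic ribosomal protein genes, whose messenger RNAs start with a pyrimidine tract (the TOP motif), had 16 rises (39.0%, against 18.1% of all genes) and 2 falls (4.88%, against 17.3%) among 41 (median 0.39). FAU, which encodes RPS30 fused to a ubiquitin-like protein, rose from 499 and 533 to 1643 and 1474 CPM (log2 1.60 ± 0.17), RPL3 from 2051 and 2150 to 4610 and 4898 CPM (log2 1.18 ± 0.16), and RPL7 fell from 2429 and 2410 to 1024 and 1373 CPM (log2 -1.02 ± 0.19), a call lost without DMSO replicate 1. The rises numbered 3 without DMSO replicate 1, 4 without DMSO replicate 2 and 26 without the 0.3 µM library, where 6 fell. Without the 3 µM library 21 rose and 8 fell. Other TOP messenger RNAs went both ways, with 5 of 21 rising and 6 falling (23.8% and 28.6%, median 0.17; 9 and 7 without the 0.3 µM library, 11 and 8 without the 3 µM library, and 3 rises without either DMSO library). EIF4B led the rises, and PABPC1 and PABPC4 (log2 -2.11 ± 0.23) led the falls. Ribosomal protein genes have many near-identical pseudogene copies, so the counts of single members are uncertain.

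Glycolysis genes had 5 rises (35.7%, against 18.1% of all genes) and no fall (against 17.3%) among 14 (median 0.46). Without the 0.3 µM library some were called lower, and the median was 0.08. LDHA, lactate dehydrogenase A, rose from 1940 and 1884 to 6834 and 5473 CPM (log2 1.69 ± 0.18, adjusted p = 0.00096, edgeR). The rises numbered 10 without the 3 µM library and 2 without either DMSO library. Of 9 genes of the integrated stress response, 6 rose (66.7%) and none fell (median 0.66; 1 fell without either RocA library): MTHFD2, a mitochondrial folate enzyme, rose from 326 and 311 to 898 and 798 CPM (log2 1.42 ± 0.17), and CHAC1, a glutathione-degrading enzyme, from 2.65 and 4.31 to 9.55 and 18.7 CPM on 5 footprints in each RocA library (log2 1.86 ± 0.62, adjusted p = 0.047, edgeR). CHAC1 lost its call without either RocA library. DESeq2 called 3 of the 9 higher, and without DMSO replicate 1 there was 1 and without DMSO replicate 2 there were 2. XBP1, the transcription factor of the unfolded protein response, rose from 66.3 and 57.4 to 219.7 and 261 CPM (log2 1.93 ± 0.19), 1 of 4 rises among 12 genes of endoplasmic reticulum chaperones (33.3%, median 0.16). None of the 12 was called lower, but 4 were without the 0.3 µM library (3 higher, median -0.07), 1 without the 3 µM library and 2 with no filter on low counts, and 2 rose without either DMSO library. The 17 tested aminoacyl-tRNA synthetases gave 5 rises and 2 falls (29.4% and 11.8%, median 0.11; 2 rises and no fall without either DMSO library, 4 and 5 falls without the 0.3 or 3 µM library), from QARS1 (353 and 328 to 1144 and 1276 CPM, log2 1.83 ± 0.17) to RARS1 (log2 -0.68 ± 0.18), whose call was lost with DESeq2 and without either DMSO library.

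Of 20 large cytoskeletal linkers, 9 rose (45.0%, against 18.1% of all genes), 4 fell (20%, against 17.3%) and 7 had no call (median 0.74). After FLNC, DYNC2H1, the dynein of cilia, went from 36 and 38 to 174 and 145 CPM (log2 2.14 ± 0.19), and VCL, vinculin, which links integrins to actin, from 183 and 200.1 to 732 and 769 CPM (log2 1.97 ± 0.17). The changes of PLEC (plectin) and AHNAK were log2 1.82 ± 0.27 and 1.89 ± 0.26. UTRN, utrophin, was the largest called fall of the list (48.1 and 56.9 to 24.8 and 18.7 CPM, log2 -1.20 ± 0.32, adjusted p = 0.020, edgeR), and lost its call with DESeq2 and without DMSO replicate 2. Falls numbered 1 without DMSO replicate 1 and none without DMSO replicate 2. Among 35 DEAD and DEAH-box helicases other than the main targets, 12 rose (34.3%) and 6 fell (17.1%, against 17.3% of all genes), with a median of 0.25, from DDX31 (log2 1.70 ± 0.19) to DHX32 (log2 -1.98 ± 0.33). Without DMSO replicate 1 there were 4 rises and 1 fall, and without DMSO replicate 2 there were 3 and 2.

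Of 22 proto-oncogene and survival genes, 1 rose (4.55%, against 18.1% of all genes) and 7 fell (31.8%, against 17.3%), with a median of -0.52. ETS1, a transcription factor, fell from 329 and 312 to 63 and 44.8 CPM (log2 -2.51 ± 0.23, adjusted p = 0.00084, edgeR), HIF1A, the hypoxia factor, from 150.4 and 145 to 55.4 and 48.5 CPM (log2 -1.48 ± 0.22), and MYC from 319 and 331 to 168 and 104 CPM (log2 -1.19 ± 0.23). In all 3 the RocA libraries lay below the DMSO libraries, which is no support beyond their calls from the same libraries. BIRC5, survivin, was the rise (158 and 162 to 227 and 377 CPM, log2 0.87 ± 0.24), a call lost without either DMSO library. The falls numbered 3 without either DMSO library. The median 5′ UTR of 21 of these genes was 306 bases. Lists that leaned to rises were not all short there. The median was 278 bases in 14 glycolysis genes, with a median longest run of 10 bases, and 221 bases in 18 cytoskeletal linkers. Immediate early and MAPK feedback genes had 1 rise, ZFP36, and 5 falls among 14 (35.7% lower, median -0.31; 2 falls without DMSO replicate 1, and 3 rises without the 0.3 µM library), led by DUSP6, a phosphatase of ERK (91.3 and 73.3 to 28.7 and 37.3 CPM, log2 -1.38 ± 0.30), which lost its call without DMSO replicate 1. Of 26 genes of RAS, RAF and PI3K signalling, 2 rose and 2 fell (7.69% each way, against 18.1% and 17.3%, median -0.06; 1 and 5 without the 0.3 µM library, median -0.55, and 4 and 3 without the 3 µM library), with RPS6KB2 at log2 3.30 ± 0.65 on 3 footprints in each DMSO library and 6 and 4 in the RocA libraries.

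Of 35 splicing genes, 5 rose (14.3%, against 18.1% of all genes) and 13 fell (37.1%, against 17.3%), with a median of -0.12. After HNRNPD, HNRNPC went from 1031 and 935 to 237 and 249.9 CPM (log2 -2.02 ± 0.18) and SRSF1, the founding SR protein, from 492 and 487 to 229 and 306 CPM (log2 -0.90 ± 0.20), while PTBP1 rose from 871 and 819.8 to 1953 and 1925 CPM (log2 1.20 ± 0.16). SRSF1 lost its call without either DMSO library. The falls numbered 5 without DMSO replicate 1, 6 without DMSO replicate 2 and 8 with DESeq2, with 1 rise without either DMSO library. Genes of S and M phase had 6 rises (17.1%) and 12 falls (34.3%) among 35 (median -0.13; 1 and 2 rises, 4 and 5 falls without DMSO replicate 1 or 2). TPX2, a spindle assembly factor, fell from 313 and 297 to 86 and 108 CPM (log2 -1.69 ± 0.21), and RRM2, the small subunit of ribonucleotide reductase, rose from 752 and 724 to 2056 and 2324 CPM (log2 1.57 ± 0.17). Cholesterol synthesis had 1 rise, INSIG1 (log2 1.13 ± 0.26), which restrains the pathway, and 4 falls among 16 (25% lower, median -0.43; 2 falls without either DMSO library), led by STARD4, a sterol carrier (log2 -1.55 ± 0.40). INSIG1 and STARD4 lost their calls with DESeq2 and without either DMSO library.

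Genes of the proteasome and of cytosolic chaperones went both ways. Of 26 proteasome genes, 5 rose and 6 fell (19.2% and 23.1%, beside 18.1% and 17.3% of all genes, median 0.05). The counts were 9 and 7 without the 0.3 µM library, 5 and 11 without the 3 µM library, 2 and 4 without DMSO replicate 1 and 3 and 3 without DMSO replicate 2. PSMB5, a catalytic subunit, rose from 289 and 285 to 512 and 940.1 CPM (log2 1.31 ± 0.27), and PSME3, an activator cap, fell from 416 and 359 to 66.9 and 52.2 CPM (log2 -2.66 ± 0.23). Of 19 cytosolic chaperone genes, 7 rose (36.8%) and 8 fell (42.1%), with a median of -0.05, and 3 fell without either DMSO library, where 3 or 1 rose. PTGES3, the HSP90 co-chaperone p23, fell from 954 and 856 to 172 and 172 CPM (log2 -2.40 ± 0.19), and PFDN5, a prefoldin subunit, rose from 384 and 375 to 764 and 977 CPM (log2 1.19 ± 0.18). Within the TRiC chaperonin, CCT3 rose from 1901 and 1748 to 3888 and 4018 CPM and CCT7 fell from 1358 and 1298 to 657 and 504 CPM, and CCT3 lost its call without DMSO replicate 2. Genes of the extracellular matrix had 3 rises (17.6%, beside 18.1% of all genes) and 1 fall (5.88%, beside 17.3%) among 17 (median 0.0). The balance turned with the library left out, to 1 rise and 4 falls without the 0.3 µM library (median -0.67) and 6 rises and 1 fall without the 3 µM library (median 0.29). The called changes ran from AGRN (log2 1.8 ± 0.32), whose call was lost without the 0.3 µM library, to LAMA4 (log2 -1.08 ± 0.28), whose call was lost with DESeq2 and without either DMSO library. CD44 was the single call among 7 mesenchymal genes (509.9 and 505 to 1301 and 862 CPM, log2 1.10 ± 0.22) and was lost without either DMSO library. None of 4 epithelial genes and of 1 squamous gene was called.

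The doses were compared as a description, since each has 1 library. Of 1487 genes with at least 100 footprints over the 2 RocA libraries, 89 (5.99%) differed at least 2-fold, 42 higher and 47 lower at 3 µM, and the median log2 ratio was 0.04. NOP16, a nucleolar protein, stood at 95.5 CPM at 0.3 µM and 284 CPM at 3 µM, with DMSO values between them (128 and 135). C11orf58 and UTP14A, a ribosome assembly factor, went from 82.2 and 97.4 to 235 and 276 CPM. ZNG1E and ZNG1F, near-identical copies that share reads, went from 82.2 and 80.2 to 231 and 224 CPM. In the other direction, L1CAM, a neural adhesion molecule, was at 176 CPM at 0.3 µM and 52.2 CPM at 3 µM, and MYCBP2, ATP13A1, CPD and MYADM went from 174 to 204 CPM down to 59.7 to 70.9 CPM. L1CAM, MYCBP2, ATP13A1, CPD and MYADM lay above both DMSO libraries at 0.3 µM and below both at 3 µM. Of the 1068 genes called higher, 620 were farther up at 3 µM than at 0.3 µM, and of the 1019 called lower, 644 were farther down. The same shares over all genes tested were not taken. The 3 µM library also held fewer named footprints (291141 against 571958), so that low genes reach 0 there more easily. Whether these counts reflect the dose was not tested.

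Most of the response was shared by the other lines. Of the genes called higher in Hs 936.T, 95.8% were also above their DMSO mean in A375, 89.6% in NCI-H520 and 81.7% in NCI-H1650. Of the genes called lower, 97.5%, 97.4% and 96.4% were below it. Over all 5896 genes, 42.1%, 41.0% and 33.2% were above it in these 3 lines. Across genes, which are not independent replicates, Pearson's r with the response of Hs 936.T was 0.74, 0.63 and 0.57, in the order A375, NCI-H520 and NCI-H1650, which is also the order of falling footprint totals in the DMSO libraries. The lines do not share DMSO libraries. The RocA libraries of NCI-H1650 hold as few as 49031 named footprints. Of the NCI-H520 libraries, 2 carry the cell line label NCI-H521, and its DMSO libraries hold melanocyte markers at a summed 1235 and 2925 CPM against 304 to 492 CPM in the DMSO libraries of A375 and NCI-H1650.

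In the 16-library model, the response of Hs 936.T less the mean of the other 3 lines was higher in 136 of 6606 genes (2.06%) and lower in 32 (0.484%) by edgeR with Benjamini-Hochberg adjustment. The 136 fell to 12 without the 0.3 µM library of Hs 936.T, to 72 without DMSO replicate 1 and to 78 without NCI-H1650. The 32 went to 98 without the 3 µM library. FTH1, the ferritin heavy chain that stores iron, gave 391 and 384 CPM with DMSO and 95.8 and 110.2 CPM with RocA in Hs 936.T. In A375 FTH1 was at 385 and 339 CPM with DMSO and at 271 and 219 CPM with RocA, in NCI-H1650 at 331 and 386 and at 327 and 332 CPM, and in NCI-H520 at 144 and 145 and at 106 and 188 CPM. The difference was log2 -1.72 ± 0.23 (adjusted p = 2.5e-09, edgeR), and it was called under each alternative that could fit the gene. The RocA libraries of Hs 936.T were thus the lowest relative to their DMSO libraries. FTH1 has many processed pseudogenes, which could share its reads.

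**Figure D5:**
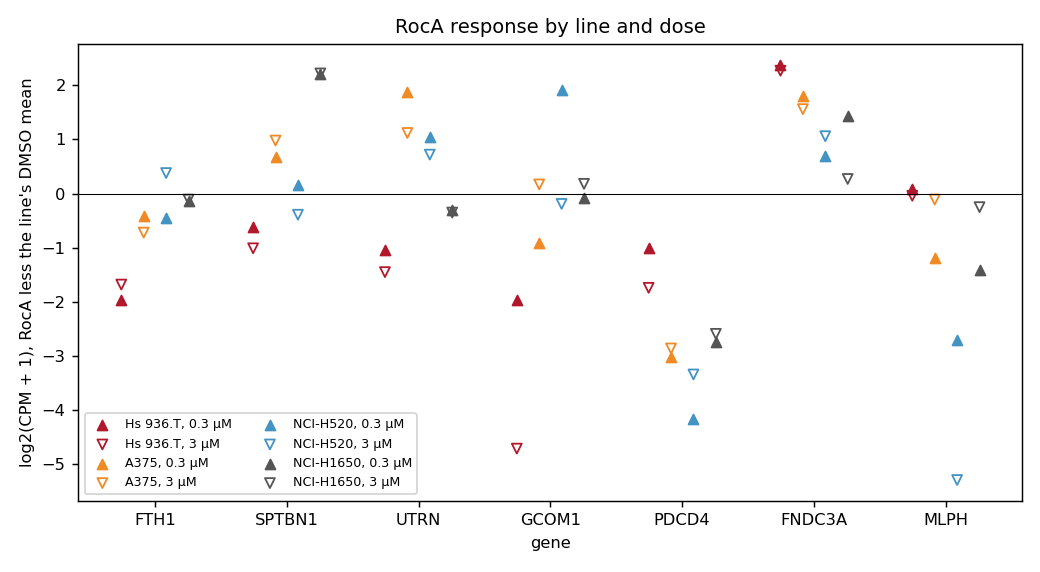
Response to RocA as log2(CPM + 1) less the DMSO mean of the same line (vertical axis) for 7 genes (horizontal axis) in 4 lines; filled upward triangles are 0.3 µM and open downward triangles 3 µM, coloured by line. FTH1, SPTBN1, UTRN and GCOM1 are lowest in Hs 936.T at both doses, PDCD4 falls less in Hs 936.T (-1.0 and -1.74) than in the other lines, and MLPH stays near 0 in Hs 936.T.

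SPTBN1, a membrane skeleton spectrin, went from 696 and 932 to 517 and 371 CPM in Hs 936.T, and from 35.9 and 30.4 to 157 and 158 CPM in NCI-H1650 and from 156 and 178 to 268 and 329 CPM in A375 (difference log2 -1.83 ± 0.21, adjusted p = 1.2e-11, edgeR). NCI-H520 was between, at 197 and 207 CPM with DMSO and 226 and 154 CPM with RocA. UTRN, also a linker of actin to the membrane, fell in Hs 936.T and was at 210.1 and 125 CPM with RocA in A375 against 49.2 and 64.2 CPM with DMSO (difference log2 -2.01 ± 0.38, adjusted p = 0.00012, edgeR). For GCOM1, a readthrough locus that shares exons with its neighbours, 3 footprints remained under RocA in Hs 936.T, all at 0.3 µM, against 126 with DMSO, a 7.02-fold fall (95% exact interval 2.35 to 34.5, for counting error only). ZNF721, a zinc finger gene, differed by log2 -2.27 ± 0.53.

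Some genes fell less or rose more in Hs 936.T. PDCD4 changed by log2 -1.24 there and by -2.66 in NCI-H1650, -3.75 in NCI-H520 and -2.93 in A375 (difference 1.86 ± 0.40, adjusted p = 0.00097, edgeR), and the call was lost without the 0.3 µM library (1.07, adjusted p = 0.70, edgeR). FNDC3A rose by log2 2.34 against 0.85, 0.88 and 1.68 in the same order (difference 1.0 ± 0.24, adjusted p = 0.0056, edgeR), a call that was lost without NCI-H520, without DMSO replicate 1 and without the 0.3 µM library (adjusted p = 0.11 to 0.26, edgeR) and on thinned libraries (adjusted p = 0.90, edgeR). MLPH differed by 1.81 ± 0.53 (adjusted p = 0.033, edgeR), from DMSO levels of 552 and 545 CPM in Hs 936.T and of 18.7 to 56.5 CPM in the other lines; it lost its call under 7 alternatives, among them DESeq2, the omission of either DMSO library or of the 0.3 µM library, thinning and the omission of NCI-H520 (0.81, adjusted p = 0.59, edgeR), whose DMSO libraries hold the melanocyte reads, and the part of those reads in the result was not tested. MYCBP2 differed by 1.54 ± 0.41 (adjusted p = 0.014, edgeR), lost with DESeq2, without NCI-H520, without NCI-H1650 or without the 0.3 µM library.

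The largest positive differences belonged to genes with few or no footprints left in the other lines. TBC1D5, a regulator of RAB7, kept 19 footprints under RocA in Hs 936.T, 18 of them at 0.3 µM, against 424 with DMSO, and none in the other 3 lines against 408, where it was at least 20.3-fold lower (3 counts over the group as the floor). TOR1AIP2 kept 20 footprints in Hs 936.T against 371 and 1 in the others against 454, a 67.9-fold fall there (95% exact interval 12.1 to 2688, for counting error only). DYRK1A, a kinase, kept 17 against 212 and 2 against 210 (15.7-fold, 4.29 to 131). FAM3C kept 11 against 299 and 4 against 834 (adjusted p = 0.049, edgeR, a call lost under 10 alternatives including DESeq2), and NADSYN1, which makes NAD, 12 against 146 and 7 against 312. Scaled for depth like the folds above, the falls in Hs 936.T were 3.73-fold for TBC1D5, 3.1-fold for TOR1AIP2 and 2.08-fold for DYRK1A. They were 4.54-fold for FAM3C and 2.03-fold for NADSYN1, against 31.2-fold and 6.67-fold in the other lines. ADGRL2, an adhesion receptor, went from 13.6 and 19.8 to 42 and 18.7 CPM in Hs 936.T. In the other lines ADGRL2 went from 253 to 8 footprints, a 4.73-fold fall scaled for depth, which came mainly from NCI-H1650. There it stood at 181 and 167 CPM with DMSO and at 39.3 and 31.6 CPM with RocA (scaled over all 16 libraries). In NCI-H520 and A375 it was at 1.66 to 5.51 CPM with DMSO, so 0 footprints under RocA say little there. The fitted differences of these genes depend on the prior count and are no bounds. Without the 0.3 µM library of Hs 936.T, TBC1D5, TOR1AIP2, DYRK1A and ADGRL2 lost their calls (log2 differences of 3.93, 3.89, 3.65 and 4.16). NADSYN1 lost its call without NCI-H1650, without A375 and without the 3 µM library of Hs 936.T. The entry that stands for TOR1AIP2 covers 122 of 461 codons and that of NADSYN1 249 of 697, so a short isoform was counted in both.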

How the data were processed

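Ribosome profiling libraries of 4 human lines were used, 16 in all, 4 of them from Hs 936.T. The authors' deposited tables give whole-number counts per transcript entry and, per entry, a length in codons. Per the submitters' processing notes, CASAVA 1.8, Bowtie2 2.1.0 and TopHat2 2.0.9 were used with hg38; their settings, the read offsets and the strand handling are not given in the sources used here. The 182398 entries carry numbers in place of names. Of these, 93916 hold a coding length, which is the coding codons less 10. Runs of 2 to 40 neighbouring lengths were matched to GENCODE 29 coding genes (natural-log score of at least 11, odds of at least 100). This named 9544 of 20400 genes. With shifted lengths as decoys, 86 passed, which is 0.888% of the 9690 genes matched. Of the 9544 named, 12 lay over 5 Mb out of place. The entry with the most counts over 16 libraries stood for a gene; Y-linked and mitochondrial genes were left out, leaving 9534.

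Counts were tested with edgeR 4.0.16 in R 4.3.3 (quasi-likelihood, TMM scaling, robust, minimum count 10), RocA of both doses against DMSO, with Benjamini-Hochberg adjustment over all genes tested and calls at 0.05. A second model over all 16 libraries had terms for line, response per line and dose. Values after ± are standard errors. DESeq2 1.42.0, other scalings and filters, thinning and leave-one-out fits were alternatives. On data simulated from these libraries, 52% of 2-fold and 88% of 4-fold changes among 5896 genes were recovered for the Hs 936.T response, with 4.11% false calls. For the comparison with the other lines, over 6606 genes, these were 39%, 76% and 6.5%. Each simulated gene had the same mean share in all libraries apart from 200 planted changes. The simulated lines thus differed in no other way, and no other gene responded to RocA. How far these rates hold for the real libraries was not tested.

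Genes named were the 12 largest called rises and falls of at least 20 mean CPM with both RocA libraries outside the DMSO range. Also named were per list the largest called rise and fall, preset eIF4A and pigment genes and the 6 largest line differences each way. The last were the 5 largest dose ratios each way among genes with at least 100 counts. EDNRB, TRPM1, OCA2, CDK2, PABPC4, RPL3, SDHA, MTHFD2, VCL, PLEC, AHNAK, HNRNPC, SRSF1, CCT3, CCT7, MYC, HIF1A, EIF4E and, for their line difference, other genes already named were added after their values were seen. Some genes that the rule names are not reported here. The members and the 30 gene lists were chosen with earlier results of these data known. Per-line values are log2 of CPM with a pseudocount of 1. Fewer footprints under RocA (down to 291141) make those values the less precise ones.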

Additional observations from a re-analysis of the deposited data

Results flagged for a closer look

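The response of 15 named genes in Hs 936.T differed from the mean response of the other 3 lines by the test of the difference itself (edgeR, 16-library model). Lower in Hs 936.T on the log2 scale were GCOM1 (-3.13), ZNF721 (-2.27), UTRN (-2.01), SPTBN1 (-1.83) and FTH1 (-1.72). Higher were TBC1D5 (6.56), TOR1AIP2 (5.28), NADSYN1 (5.16), ADGRL2 (5.01), FAM3C (4.87) and DYRK1A (4.61), each with few or no footprints in the other lines under RocA, so that the fitted values are no bounds, and PDCD4 (1.86), MLPH (1.81), MYCBP2 (1.54) and FNDC3A (1.0). Of the 15, FTH1 kept its call under each alternative that could fit it, and the other 14 lost theirs under at least 1.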

How the results depend on the processing

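With 2 libraries a group and the RocA pair at different doses, counts of calls moved with single libraries and with depth: the Hs 936.T response moved most without a DMSO library, and the higher calls of the difference from the other lines most with thinning and without the 0.3 µM library. Genes higher in Hs 936.T (1068) ranged from 369 to 1286 and genes lower (1019) from 364 to 1181 when each library was left out in turn; thinning all 4 libraries to equal depth gave 681 and 621, and DESeq2 757 and 479. The difference from the other lines (136 higher, 32 lower) ranged from 12 to 180 and from 25 to 98 when each Hs 936.T library was left out; thinning gave 4 and 3, and leaving out NCI-H1650 gave 78 higher. Other scalings, filters, entries and naming odds stayed within 1.5 times. No called gene turned its sign in any refit of Hs 936.T except 3 of 2078 when the longest entry stood for each gene. Of the 2087 calls, 1230 were also called by DESeq2, 730 without DMSO replicate 1, 795 without DMSO replicate 2 and 2029 with DESeq2 size factors. SLC45A2, without a call at 0.07, turned to -0.28 with a call without the 0.3 µM library and to 0.33 with a call without the 3 µM library. A fit over all 16 libraries without NCI-H520, chosen after seeing the data, gave 1306 higher and 1438 lower. No paired analysis was possible because the RocA libraries carry no replicate number.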
